A study of Mus musculus with 12 samples.

Results

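The comparison set a pair of N2A lines side by side while the splicing factor Puf60 was depleted. N2A is a mouse neuroblastoma line. The 4 libraries taken were those whose titles name the Puf60 siRNA and no doxycycline, 2 of the pEx5 line and 2 of the mEx5 line, out of 12 libraries in all. The 4 libraries of the same lines with a non-targeting siRNA (siNTC, called control) served as the reference for what the lines differ in before knockdown. Both lines are Flp-In rtTA3 N2A cells that carry, at the integration site, a doxycycline-inducible and siRNA-resistant cDNA of Puf60 with an N-terminal Flag tag. That cDNA holds exon 5 in pEx5 and lacks it in mEx5, and no doxycycline was given to any of these 8 cultures. Cells received 15 nM siRNA, fresh medium after 24 h, and were harvested at 48 h. The labels call the 2 libraries of a group, A and B, biological duplicates. They do not say whether these came from separate cultures, nor whether a line is 1 clone or a pool, so p-values measure the spread between these libraries only. With 1 line per cDNA, the cDNA and everything else that separates the lines cannot be told apart.

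Puf60 is a U2AF-related RNA-binding protein that helps the U2 snRNP recognise 3′ splice sites. Its exon 5 is alternative and lies in the coding sequence, so that a form with and a form without the short stretch it encodes are made. The lines were named for this exon, which is 51 bases long.

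Levels were measured from reads that span exon-exon junctions, summed per gene and scaled to a common library size (CPM). The 4 knockdown libraries held 26792582 to 36879792 such reads, and the 4 control libraries 26772242 to 41494994. A line difference is the log2 of pEx5 over mEx5, positive where pEx5 is higher. It was tested with limma at a Benjamini-Hochberg adjusted p under 0.05, over the 10363 genes whose mean reached 20 reads, and a gene past that threshold is said to be called. On the first principal component of the 12 libraries, with 52.3% of the variance, all pEx5 libraries fell on one side and all mEx5 libraries on the other. In the authors' group RPKM values all 4 groups held the markers of noradrenergic neuroblasts. Of 7 such markers, among them Phox2a, Hand2, Gata2, Gata3 and Dbh, 6 were at 1 RPKM or more in every group, and their summed level was 371 RPKM in pEx5 and 306 RPKM in mEx5 under knockdown. Of 6 fibroblast markers, Col3a1 was listed at 0 in every group, and the sum was 0.89 RPKM in pEx5 and 3.83 RPKM in mEx5, most of it Pdgfra at 3.17 RPKM in mEx5. The longer fibroblast list of 16 genes, which holds vimentin (Vim), went the other way, at 1151 RPKM in pEx5 and 1072 RPKM in mEx5 under knockdown, and at 969 and 1008 RPKM in control. Of 8 glial markers, Olig1, Olig2 and Sox10 were listed at 0 in every group, and the sum was 6.68 and 6.38 RPKM.

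Puf60 itself was lower in pEx5 than in mEx5 under knockdown. Its level was 58.3 and 64.4 CPM in the pEx5 libraries and 75.5 and 72.0 CPM in the mEx5 libraries. The groups did not overlap, and the line difference was -0.27 ± 0.06 (SE; adjusted p = 0.0023, limma). In control the level was 321 and 296 CPM in pEx5 and 303 and 305 CPM in mEx5, which overlapped, with a line difference of 0.02 ± 0.06. Junction reads do not separate the endogenous gene from the cDNA. The departure of the knockdown from the control line difference was -0.29 ± 0.08 and missed the threshold (unadjusted p = 0.00285, adjusted p = 0.483, limma). Without pEx5 library A the knockdown difference was -0.19 and was no longer called (adjusted p = 0.0668, limma). In the authors' deposited table the log2 fold change of Puf60 was -0.24 under knockdown (FDR = 0.00895) and 0.04 in control (FDR = 0.753).

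Exon 5 inclusion did not separate the lines under knockdown. The percent spliced in (PSI) of the exon was 23.2% (95% exact binomial interval 19.4 to 27.5) and 19.8% (16.2 to 23.7) in the knockdown pEx5 libraries. It was 26.1% (21.9 to 30.5) and 22.8% (18.6 to 27.1) in mEx5. These intervals cover counting error only, from 389 to 460 reads per library. The groups overlapped, and the difference of -2.9 points was not called (adjusted p = 0.768, limma). Control libraries were at 39.1% and 35.8% in pEx5 and at 40.8% and 39.2% in mEx5, from 1830 to 2729 reads. These did not overlap, by a narrow margin, and the difference of -2.52 points was not called (adjusted p = 0.859, limma).

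**Figure D1:**
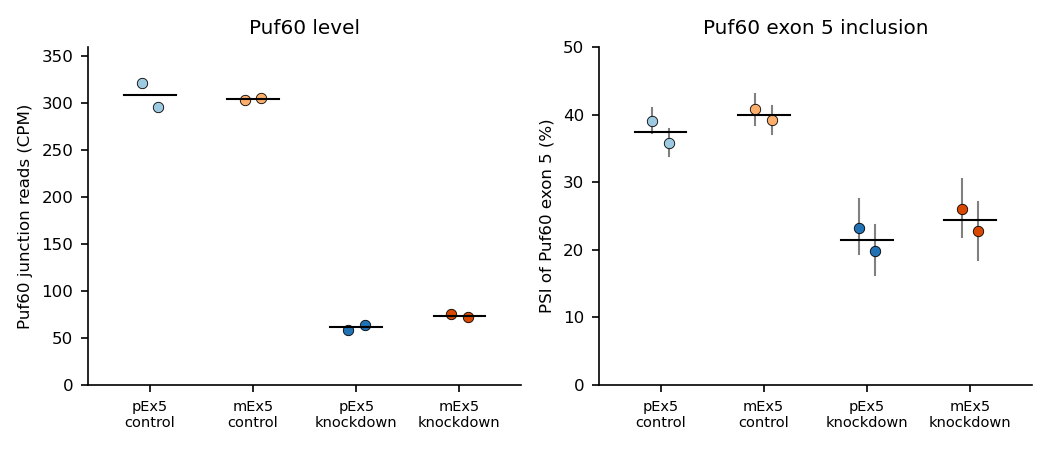
Left, Puf60 junction reads in CPM; right, PSI of Puf60 exon 5 in percent with exact 95% binomial intervals as grey bars; points are libraries A and B of each group and black lines are group means. Under knockdown Puf60 is at 58.3 to 64.4 CPM in pEx5 and 72.0 to 75.5 CPM in mEx5, while the exon 5 PSI of the lines overlaps.

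Most of what distinguished the lines under knockdown also distinguished them in control. Under knockdown 1366 genes were called higher in pEx5 and 1473 lower, 2839 of 10363 or 27.4% of the genes tested. Of these 741, or 7.15% of the genes tested, differed at least 1.5-fold, and for 64.2% of all genes the knockdown libraries of the lines did not overlap. In control 1378 were higher and 1427 lower, or 27.1%. The 2 comparisons share no library, though they share 1 estimate of the spread. Of the knockdown calls 67.3% were also called in control, and of the control calls 68.2% under knockdown. Of the 1912 genes called in both, 1908 had the same sign in both. Across genes, which are not independent replicates, the line differences of knockdown and control correlated with r = 0.89 (Pearson) and rho = 0.75 (Spearman). The direction split depended on the scaling: with scaling to total junction reads, 1086 were higher and 1670 lower under knockdown, and 938 and 1717 in control. Without pEx5 library A or B of the knockdown the knockdown count was 1714 or 1647, and without pEx5 library B, mEx5 library A or mEx5 library B of the control the control count was 1799, 1699 or 1755. The authors' deposited table gave 2425 genes higher and 2384 lower under knockdown at an FDR under 0.05, 25.9% of 18600, and 24.2% in control, with 3241 called in both.

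Several of the genes with the largest line differences were close to absent from 1 line. Tnc, the matrix glycoprotein tenascin C, was at 0.167 and 0.327 CPM in pEx5 and at 24.4 and 28.4 CPM in mEx5 (-6.46 ± 0.28, adjusted p = 2.68e-12, limma). In control its line difference was -6.80. Sp7, a transcription factor of bone-forming cells, had 90 junction reads over the 2 pEx5 libraries and 0 in mEx5, at least 24.0-fold higher against a floor of 3 reads over the group. In control it had 485 reads in pEx5 and 0 in mEx5, at least 127-fold higher. Ctsf, the lysosomal protease cathepsin F, had 0 reads in pEx5 and 85 in mEx5 under knockdown, at least 35.4-fold lower in pEx5. For the RNA-binding protein gene Igf2bp3 the reads were 1 and 87, a ratio of 109 with a counting interval of 19.0 to 4344. Wipf1, which encodes a partner of the actin regulator WASP, had 3 reads in pEx5 and 151 in mEx5, a ratio of 62.9 (21.1 to 309). Sp7, Ctsf and Igf2bp3 thus sat at or under the floor in 1 line in both conditions.

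Apart from Sp7, the 10 genes highest in pEx5 under knockdown had line differences from 1.54 (Ceacam20) to 3.02 (Slc1a1). Slc1a1, a neuronal glutamate transporter, was at 1.72 and 2.02 CPM in pEx5 and 0.258 and 0.111 CPM in mEx5. Pcdh15, a protocadherin known from hair cells, was at 2.23 and 1.58 CPM against 0.161 and 0.222 CPM. Sp7, Slc1a1, Pcdh15, Th, Fgfrl1, Tg, Ndufa4l2, Tmprss11e, Sctr and Ceacam20 made up the 10, and all were called higher in control too. The knockdown call of Sctr was lost without pEx5 library A or mEx5 library B (adjusted p of up to 0.0786, limma). At the other end stood Tnc, Wipf1, Ctsf, Acta2, Igf2bp3, Cd302, Klhl4, Ahsg, D3Bwg0562e and Plekha2, from -3.81 to -6.46 under knockdown. Each of these was called lower in pEx5 in control too. The fitted differences of Sp7, Wipf1, Ctsf, Igf2bp3 and Klhl4 rest on 3 reads or fewer in 1 line and depend on the prior count.

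The departure from control was tested for each gene as the knockdown line difference minus the control line difference. It was called for 3 genes of 10363, or 0.0289%, all 3 with a more negative line difference under knockdown. At an unadjusted p under 0.05 there were 556 genes, or 5.37%, with 282 more positive and 274 more negative. The 3 genes were Cth, Htr3a and Capn6.

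Cth encodes cystathionine gamma-lyase, which releases cysteine in the transsulfuration pathway. Its level was 93.5 and 99.9 CPM in control pEx5 and 58.4 and 60.8 CPM in control mEx5. Under knockdown it was 107 and 107 CPM in pEx5 and 111 and 114 CPM in mEx5. The mEx5 control libraries stood below all others, and the knockdown libraries of the lines lay within a narrow range. The line difference was thus 0.70 ± 0.06 in control (adjusted p = 5.53e-08, limma) and -0.08 ± 0.06 under knockdown (adjusted p = 0.358, limma). The departure was -0.78 ± 0.09 (adjusted p = 0.000282, limma), and it was called under all 15 alternatives, with an adjusted p of at most 0.00822.

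Htr3a encodes a subunit of the serotonin-gated ion channel. It was at 87.3 and 87.8 CPM in pEx5 and 38.0 and 40.4 CPM in mEx5 under knockdown, and at 79.3 and 84.6 CPM against 22.6 and 24.9 CPM in control. The lines did not overlap in either condition, and pEx5 was higher in both. The line difference was 1.16 ± 0.07 under knockdown and 1.78 ± 0.07 in control, a departure of -0.63 ± 0.10 (adjusted p = 0.0211, limma). Capn6 encodes a calpain-like protein without protease activity that binds microtubules. It was at 25 and 24.5 CPM in pEx5 and 46.7 and 44.5 CPM in mEx5 under knockdown, and at 31.5 and 32.0 CPM against 35.5 and 38.2 CPM in control. The gap between the lines was wider under knockdown, with a line difference of -0.88 ± 0.08 against -0.21 ± 0.08 and a departure of -0.66 ± 0.11 (adjusted p = 0.0383, limma). The control line difference of Capn6 was not called (adjusted p = 0.0544, limma). In the authors' deposited table its log2 fold change was -0.20 in control (FDR = 0.02475) and -0.81 under knockdown (FDR = 3.655e-27). The Htr3a call was lost in 6 of 15 alternatives, each the removal of 1 library, with an adjusted p of up to 0.303. The Capn6 call was lost in 9 of 15, the removal of any of the 8 libraries and scaling to total reads, with an adjusted p of up to 0.456.

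Other genes had large departures that missed the adjusted threshold. The largest more positive ones with an unadjusted p under 0.01 were Mylk3 (1.81 ± 0.49), Dapk2 (1.44 ± 0.44), Gatsl3 (1.41 ± 0.38), Khk (1.30 ± 0.40), Slc22a18 (1.21 ± 0.25) and Pion (1.00 ± 0.27), with adjusted p from 0.149 to 0.538 (limma). Of these Slc22a18, which encodes an organic cation transporter-like protein, was at 6.15 and 6.0 CPM in pEx5 and 5.55 and 6.46 CPM in mEx5 under knockdown. In control it was at 1.65 and 1.32 CPM against 3.28 and 3.63 CPM, so that the lines overlapped only under knockdown. Mylk3, a myosin light chain kinase, and Dapk2, a death-associated kinase, were at most 1.06 CPM in the 4 pEx5 libraries. The largest more negative ones were Sp7 (-2.31 ± 0.59), Cnga3 (-1.86 ± 0.52), Ephb4 (-1.85 ± 0.58), Rnf207 (-1.30 ± 0.41), Aldoc (-0.94 ± 0.28) and Fbxo34 (-0.91 ± 0.29), with adjusted p from 0.331 to 0.559 (limma). Sp7 was at 1.08 and 1.39 CPM in pEx5 under knockdown and at 6.51 and 6.18 CPM in control, with no read in any of the 4 mEx5 libraries, so its departure depends on the prior count. Cnga3, Ephb4 and Rnf207 were at most 2.29 CPM in the 8 libraries. Of the 1912 genes called in both conditions, Ddit3, Gadd45a, Hist1h2bc and Rnf145 were those with opposite signs, which were named after their values were seen. Their departures were -0.45 ± 0.10, -0.62 ± 0.16, 0.86 ± 0.16 and 0.50 ± 0.10, with adjusted p of 0.201, 0.309, 0.0929 and 0.138 (limma).

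**Figure D2:**
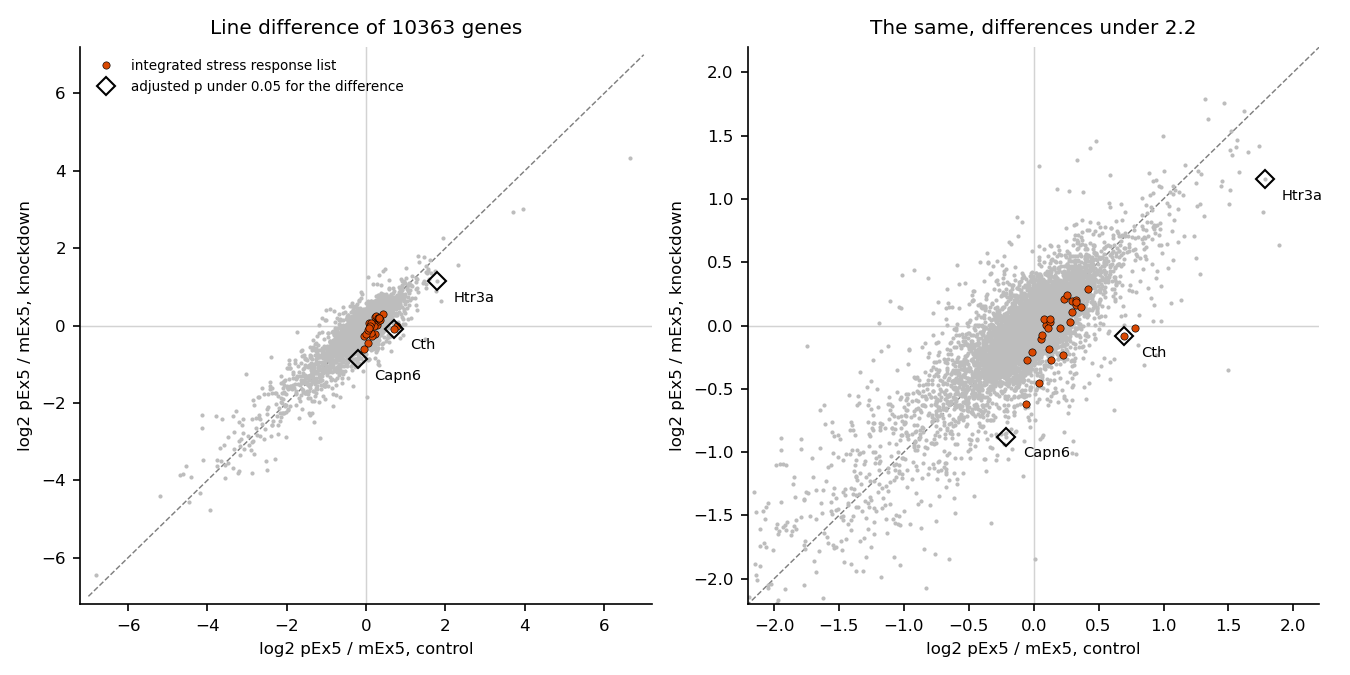
Line difference (log2 of pEx5 over mEx5) of each gene in control (x axis) and under knockdown (y axis), all genes on the left and the centre enlarged on the right; the dashed line marks equal differences, diamonds the 3 genes called for the departure, and orange points the 27 genes of the integrated stress response list. Most genes lie along the dashed line, while all 27 orange points lie below it.

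Cth and Ddit3 belong to the list of integrated stress response genes. In that response, kinases that sense amino acid shortage, unfolded proteins or other stresses slow translation initiation, which favours translation of the transcription factor Atf4. Atf4 and its partners then raise genes of amino acid uptake and synthesis, tRNA charging and stress signalling. Of 31 listed genes 27 were measured. All 27 had a departure below 0, against 51.8% of all genes tested, and the list median was -0.16 against -0.01 over all genes. At an unadjusted p under 0.05, 10 were more negative and 0 more positive, where 2.64% and 2.72% of all genes were. Only Cth passed the adjusted threshold. Other lists also leaned one way, with departures below 0 in 9 of 10 SR protein, 14 of 17 hnRNP and 16 of 21 synaptic genes, and above 0 in 23 of 29 S phase and 14 of 18 interferon response genes. The departure was below 0 in all 27 under each of 3 scalings, in 23 to 27 when single libraries were left out, and the list was compiled with earlier results of these data known.

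In control, 14 of the 27 genes were called higher in pEx5 and 0 lower, where 13.3% and 13.8% of all genes were, with a list median of 0.20. Under knockdown 7 were higher and 6 lower, with a median of 0.01, where 13.2% and 14.2% of all genes were. Without pEx5 library B those knockdown counts were 3 and 3, without mEx5 library A 3 and 6, and without mEx5 library B 7 and 3. Beside these values stands the lower Puf60 level of the pEx5 line under knockdown, whose part in them was not tested.

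The genes called lower in pEx5 under knockdown include known stress effectors. Trib3, a pseudokinase induced by stress, was at 51.1 and 47.9 CPM in pEx5 and 66.4 and 69.2 CPM in mEx5, with a line difference of -0.45 ± 0.08 (adjusted p = 0.000215, limma). In control it was at 30.4 and 28.0 CPM against 29.0 and 27.8 CPM, where the lines overlapped. Slc7a11, the cystine and glutamate exchanger, was at 15.3 and 14.8 CPM against 21.7 and 24.6 CPM under knockdown (-0.62 ± 0.11, adjusted p = 0.000228, limma). In control it was at 9.07 and 9.15 CPM against 8.90 and 10.1 CPM, again overlapping. These 2 were the lowest of the list under knockdown. The highest were Shmt2, a mitochondrial enzyme of serine and folate metabolism, at 0.29 ± 0.06, and Slc3a2, the heavy chain of amino acid exchangers, at 0.24 ± 0.07. Both were also called higher in control, at 0.42 and 0.25. The knockdown call of Slc3a2 was lost without pEx5 library B (0.20, adjusted p = 0.121, limma) or mEx5 library A (0.13, adjusted p = 0.228, limma), and the authors' deposited table gave a log2 fold change of 0.04 for it (FDR = 0.72).

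A further 5 list genes were picked for their departures after the values were seen. Ddit3, which encodes the transcription factor Chop, was at 78.2 and 82.5 CPM in pEx5 and 92.2 and 96.3 CPM in mEx5 under knockdown, and at 50.6 and 58.6 CPM against 46.9 and 46.4 CPM in control. Chac1, an enzyme that breaks down glutathione, was at 56.0 and 57.0 CPM against 69.6 and 66.9 CPM under knockdown and at 50.3 and 50 CPM against 44.8 and 46.5 CPM in control. Sesn2, a sensor of amino acids, was at 67.1 and 67.4 CPM against 74.7 and 78.6 CPM under knockdown and at 56.0 and 56.6 CPM against 51.7 and 51.9 CPM in control. In each of these 3 the pEx5 libraries were the higher in control and the mEx5 libraries under knockdown, with no overlap, and the control difference was called for Ddit3 only. Their departures were -0.45 ± 0.10, -0.41 ± 0.09 and -0.31 ± 0.08, with adjusted p of 0.201, 0.195 and 0.349 (limma). Atf3, a stress-induced transcription factor, was at 9.32 and 10.5 CPM against 11.4 and 8.82 CPM under knockdown and at 8.01 and 8.65 CPM against 5.14 and 4.51 CPM in control. Its departure was -0.80 ± 0.20 (adjusted p = 0.295, limma), and the lines overlapped only under knockdown. Atf4 itself was at 538 and 553 CPM against 530 and 543 CPM under knockdown and at 545 and 552 CPM against 464 and 442 CPM in control, a departure of -0.25 ± 0.07 (adjusted p = 0.341, limma).

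**Figure D3:**
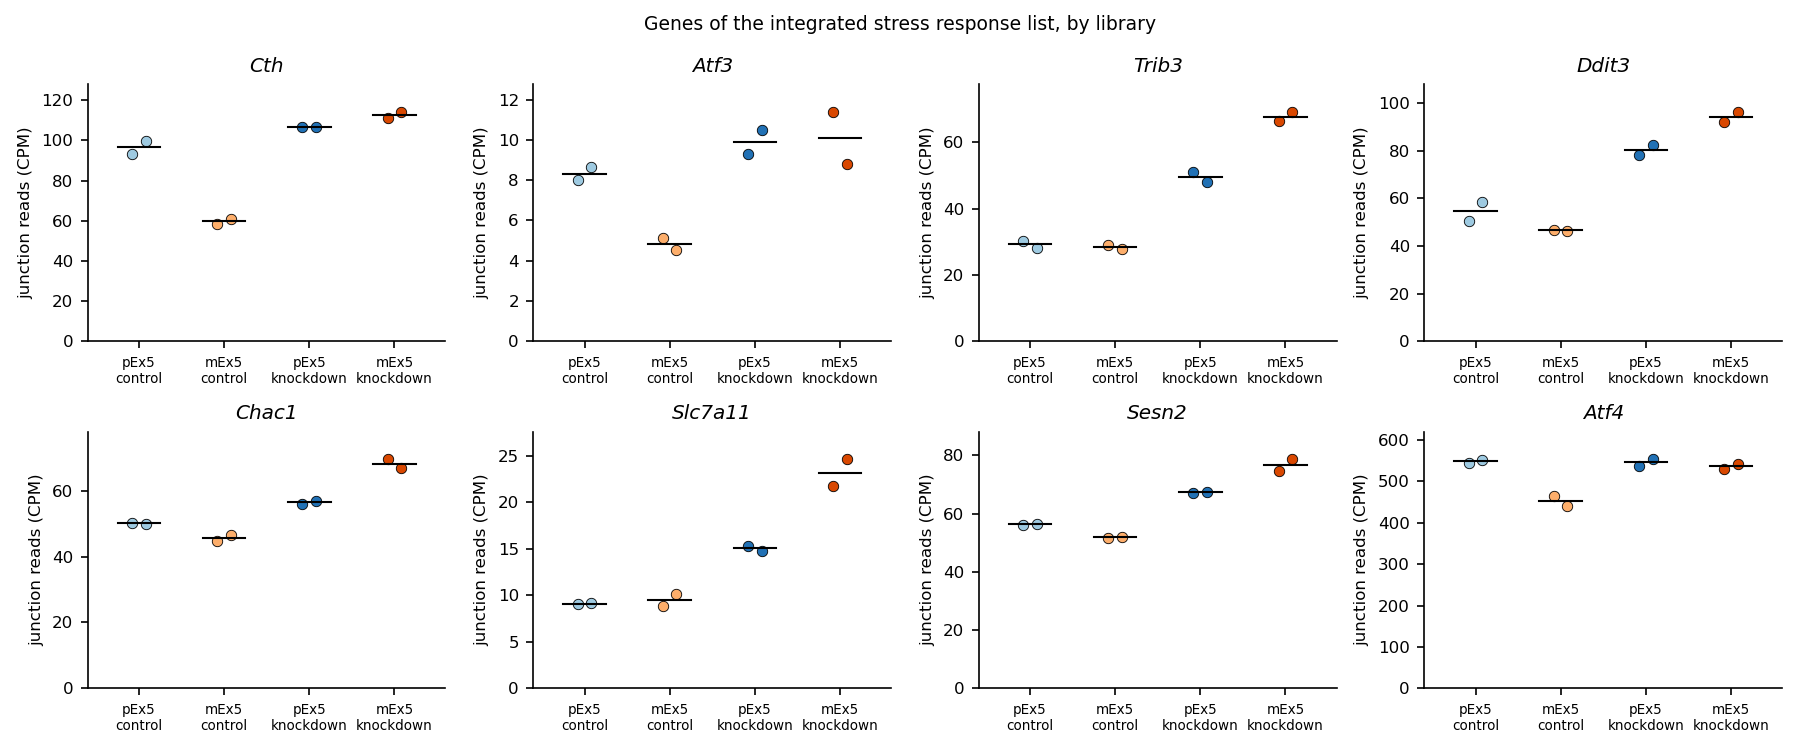
Junction reads in CPM of 8 genes of the integrated stress response list, with points for libraries A and B of each group and black lines for group means. Cth, Atf3 and Atf4 are lowest in the mEx5 control libraries, while Trib3, Ddit3, Chac1, Slc7a11 and Sesn2 are highest in the mEx5 knockdown libraries.

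The promoters of 3 of these genes are shown because they hold the core of the element that Atf4 binds together with C/EBP proteins. The letters TGATGNAA were searched on both strands in windows from 250 bases before to 50 bases after the RefSeq start, on GRCm38.p6. Of 32851 such windows 3.97% held a match. Of the 22 measured list genes with an entry 8 held 1 or more, Atf3, Trib3, Asns, Chac1, Slc7a11, Nupr1, Aars and Gars. The other 5 measured list genes had no entry, among them Cth, the only list gene whose departure was called. None of the 3 genes shown had a called departure. The list was compiled for this response, so its share of matches is not a result of these data. A part of Atf4 in the departures was not tested. The sequences run from 250 to 21 bases before the start, 5′ to 3′ on the gene's strand, with the match in capitals. The Atf3 stretch is chr1:191183354-191183583 (minus strand), that of Chac1 is chr2:119350992-119351221 (plus strand), and that of Slc7a11 is chr3:50443634-50443863 (minus strand) with 2 matches.
Atf3: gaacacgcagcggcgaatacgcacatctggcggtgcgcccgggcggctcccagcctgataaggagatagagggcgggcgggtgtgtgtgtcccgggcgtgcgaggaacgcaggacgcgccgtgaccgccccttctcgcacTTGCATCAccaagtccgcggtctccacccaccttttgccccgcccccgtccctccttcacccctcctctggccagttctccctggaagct
Chac1: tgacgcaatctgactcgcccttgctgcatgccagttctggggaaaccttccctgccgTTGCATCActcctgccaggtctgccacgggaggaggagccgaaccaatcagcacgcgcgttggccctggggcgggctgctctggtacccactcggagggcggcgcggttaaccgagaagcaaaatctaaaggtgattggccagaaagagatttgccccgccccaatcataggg
Slc7a11: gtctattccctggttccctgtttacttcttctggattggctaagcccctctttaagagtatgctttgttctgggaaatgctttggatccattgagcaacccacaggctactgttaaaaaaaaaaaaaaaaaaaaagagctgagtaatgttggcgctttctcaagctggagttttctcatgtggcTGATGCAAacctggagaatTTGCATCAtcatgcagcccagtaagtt

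Genes of sterol synthesis and uptake were higher in pEx5 under knockdown as in control. Of 19 measured genes 16 were called higher under knockdown and 0 lower, and 17 and 0 in control. Over all genes 13.2% were higher and 14.2% lower under knockdown, and 13.3% and 13.8% in control. The list median was 0.44 under knockdown and 0.54 in control, against 0.00 and 0.01 over all genes. Dhcr7, the enzyme of the final step of cholesterol synthesis, was at 151 and 145 CPM in pEx5 and 94.0 and 105 CPM in mEx5 under knockdown (0.58 ± 0.07, adjusted p = 3.63e-06, limma). In 16 of the 19 the departure was below 0, and 0 departures were called.

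Matrix and contractile genes were lower in pEx5 in both conditions. Of 14 measured extracellular matrix genes 10 were called lower and 0 higher under knockdown, and 11 lower and 1 higher in control, with medians of -0.86 and -1.06. Over all genes 14.2% were lower and 13.2% higher under knockdown, and 13.8% and 13.3% in control. Sparc, a collagen-binding matrix protein, was at 18.6 and 18.2 CPM in pEx5 and 127 and 138 CPM in mEx5 under knockdown. Lama4, a laminin chain, was at 7.87 and 9.11 CPM against 65.4 and 68.6 CPM. Beside these stands the summed levels of the fibroblast markers and of the longer list given above, whose part in the matrix genes was not tested; the collagen genes Col1a1 and Col1a2 were at or under 0.04 RPKM in all 4 groups. Of 15 contractile and Srf or Yap target genes 11 were called lower and 0 higher under knockdown, and 9 and 0 in control. Without pEx5 library A or mEx5 library A the knockdown count was 6, and without pEx5 library B it was 7. Acta2, smooth muscle actin, was at 0.751 and 1.34 CPM against 19.9 and 25.5 CPM under knockdown, and at 0.270 and 0.14 CPM against 8.86 and 10.1 CPM in control. Myl9, a regulatory light chain of myosin, was at 13.3 and 17.1 CPM against 53.1 and 55.1 CPM under knockdown and at 1.52 and 2.05 CPM against 11.6 and 12.3 CPM in control. Its line difference was -1.84 ± 0.13 under knockdown and -2.72 ± 0.13 in control, a departure of 0.88 ± 0.19 that missed the threshold (adjusted p = 0.187, limma).

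Genes of the noradrenergic and neuronal identity of N2A cells differed in both directions. Of 18 measured noradrenergic genes 6 were higher and 1 lower under knockdown, and 8 and 1 in control. Over all genes 13.2% were higher and 14.2% lower under knockdown. Dbh, which makes noradrenaline from dopamine, was at 29.3 and 26.9 CPM in pEx5 and 9.07 and 12.1 CPM in mEx5 under knockdown (1.42 ± 0.13, adjusted p = 2.02e-07, limma). Th, which acts earlier in the pathway and makes L-DOPA from tyrosine, was near the detection limit at 1.20 and 0.955 CPM against 0.129 and 0.222 CPM. Ddc, the decarboxylase that makes dopamine, went the other way under knockdown, at 9.10 and 8.46 CPM against 15.2 and 16.4 CPM (-0.84 ± 0.11, adjusted p = 1.50e-05, limma). In control Ddc was at 12.2 and 13.3 CPM against 13.3 and 14.9 CPM and was not called, and its departure of -0.70 ± 0.16 missed the threshold (adjusted p = 0.202, limma). Of 14 neuronal markers 7 were higher and 3 lower under knockdown. Gap43, a growth cone protein, was the highest at 0.48 ± 0.06, and Snap25, a synaptic fusion protein, the lowest at -0.50 ± 0.06. Of 21 synaptic vesicle and SNARE genes 4 were higher and 4 lower, with the synapsin gene Syn2 the highest at 1.22 ± 0.06. Of 21 ion channel and receptor genes 7 were higher and 4 lower, led by Htr3a, described above, and by the potassium channel gene Kcnk1 at -1.73 ± 0.47. Next to them stood the nicotinic receptor subunit gene Chrna3 at 0.71 ± 0.07 and the calcium channel gene Cacna1g at -0.84 ± 0.10. Kcnk1 was near the detection limit, with 4 and 2 reads in the pEx5 libraries and 16 and 9 in the mEx5 libraries under knockdown. The Kcnk1 call was lost without pEx5 library B or mEx5 library A (adjusted p of 0.0848 and 0.0852, limma). Counts in these 3 neuronal groups moved when a knockdown library was left out, to 4 higher neuronal markers without pEx5 library B, to 1 higher synaptic gene without mEx5 library B and to 3 higher channel genes without pEx5 library A.

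Most of the interferon response genes that were called were lower in pEx5. Of 18 measured, 0 were higher and 7 lower under knockdown, and 2 and 10 in control, with medians of -0.26 and -0.32. The 2 higher in control were Stat2, a transcription factor of the pathway, at 0.39 ± 0.07 and the antigen-presenting gene H2-K1 at 0.21 ± 0.05, both named after their values were seen. Over all genes 13.2% were higher and 14.2% lower under knockdown, and 13.3% and 13.8% in control. Isg15, a ubiquitin-like protein, was at 3.89 and 3.19 CPM in pEx5 and 8.74 and 10.2 CPM in mEx5 under knockdown (-1.40 ± 0.18, adjusted p = 9.64e-06, limma). Of 20 Nrf2 and glutathione genes 2 were higher and 5 lower under knockdown, with the quinone reductase gene Nqo1 at 0.52 ± 0.10 and the glutathione transferase gene Gstm2 at -1.43 ± 0.11. Gstm1, at -0.98 ± 0.13, and Gstm2 are related family members, so their reads may be shared. Their departures of 0.82 ± 0.19 and 0.63 ± 0.15 missed the threshold (adjusted p of 0.215 and 0.258, limma). Of the 20 genes 13 had a departure below 0 and 7 above. The unfolded protein response list had 6 higher and 1 lower gene of 20, led by Edem1, which helps clear misfolded proteins, at 0.32 ± 0.07. Of 29 S phase genes 5 were higher and 1 lower, and of 21 G2 and M phase genes 3 and 3, with the survivin gene Birc5 at 0.30 ± 0.06. The share of higher genes in S phase and the shares both ways in G2 and M phase were near those over all genes. Of 15 p53 target genes 1 was higher and 1 lower, the latter Gdf15, a secreted stress factor, at 13.8 and 13.7 CPM in pEx5 against 18.6 and 18.3 CPM in mEx5. Gdf15 had a departure of -0.55 ± 0.15 (adjusted p = 0.341, limma). Without pEx5 library B the higher genes of the unfolded protein response were 3 and those of S phase 2, and without pEx5 library A or B of the knockdown G2 and M phase had 1 gene each way.

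Most measured splicing regulators were not called between the lines under knockdown, as for all genes tested, of which 27.4% were called. Of 21 measured U2 and 3′ splice site factors 2 were called higher and 2 lower, the lower ones being Puf60 itself and Uhmk1, a kinase of splicing factors, at -0.41 ± 0.11. The higher ones were Sf3a2, a U2 snRNP subunit, at 0.27 ± 0.06, and Sugp1 at 0.19 ± 0.06. The Sugp1 call was lost in 5 of 15 alternatives, with scaling to total reads or the upper quartile and without pEx5 library A, pEx5 library B or mEx5 library A of the knockdown (adjusted p of up to 0.25, limma). The Uhmk1 call was lost without pEx5 library B or mEx5 library A (adjusted p of up to 0.139, limma). Of 10 SR protein genes 0 were called, and of 17 hnRNP genes 1 was higher (Pcbp2, 0.30 ± 0.06) and 1 lower (Hnrnph1, -0.22 ± 0.05). Among 20 regulators of neural splicing, 2 were higher and 4 lower, with Celf3 at 0.49 ± 0.08 and Celf5 at -0.79 ± 0.15 at the ends. Of 16 factors of nonsense-mediated decay 2 were lower, among them Upf3a at -0.29 ± 0.06. Over all genes 13.2% were higher and 14.2% lower. Without mEx5 library B of the knockdown 3 SR protein genes were lower, and without pEx5 library A or B or mEx5 library A 2 neural regulators were.

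The smaller lists held calls in both directions, where over all genes 13.2% were higher and 14.2% lower. Of 11 measured adhesion and axon guidance genes 3 were higher and 3 lower, with the semaphorin receptor gene Plxna4 at 0.48 ± 0.09. Without pEx5 library B of the knockdown 0 of these were called lower, and without mEx5 library B 1 was. Of 8 heat shock genes 2 were higher, Hsph1 at 0.21 ± 0.05 and Hspb8 at 0.21 ± 0.06, the latter not called without pEx5 library B or mEx5 library B (adjusted p of up to 0.152, limma). Of 4 measured mesenchymal genes 1 was higher and 2 lower. The lower ones were Fn1, fibronectin, at -0.45 ± 0.06 and Pdgfra, a growth factor receptor, at -2.05 ± 0.18. The higher one was Vim, the intermediate filament protein vimentin, at 2688 and 2749 CPM in pEx5 and 2247 and 2449 CPM in mEx5 (0.21 ± 0.06, adjusted p = 0.0137, limma). Its call was lost without pEx5 library A, pEx5 library B or mEx5 library A of the knockdown (adjusted p of up to 0.153, limma). Of 2 measured glial genes 1 was lower, the myelin gene Mbp at -0.65 ± 0.23. The Mbp call was lost without pEx5 library A, pEx5 library B or mEx5 library A of the knockdown, or mEx5 library A of the control (adjusted p of up to 0.30, limma). Of 2 measured Hox genes 0 were called.

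**Figure D4:**
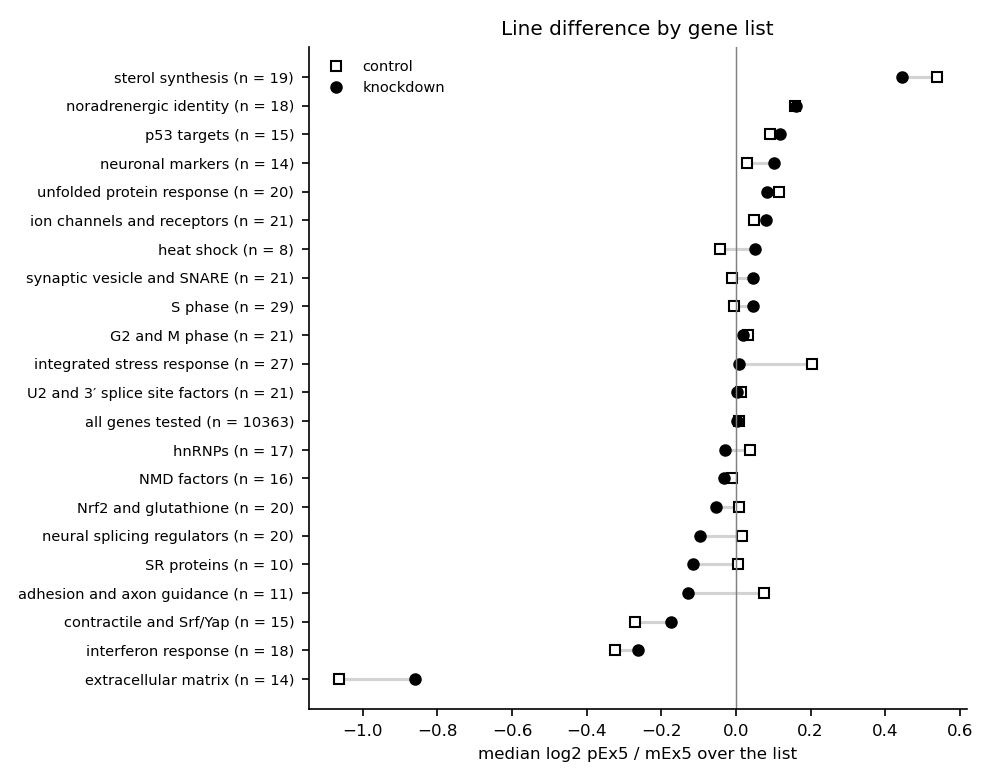
Median line difference (log2 of pEx5 over mEx5) of each list with 8 or more measured genes, in control (open squares) and under knockdown (filled circles), with the number of genes measured. The integrated stress response list moves from 0.20 in control to 0.01 under knockdown, while sterol synthesis stays above 0.4 and the extracellular matrix below -0.8 in both.

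The line difference varied along the genome. Of the genes tested 10295 had a chromosome in the RefSeq annotation. On chromosome 1, 32.6% of 552 genes were called lower in pEx5 under knockdown and 4.71% higher, and on chromosome 2, 31.3% of 837 were lower and 5.02% higher. The chromosome medians were -0.13 and -0.13 under knockdown and -0.12 and -0.13 in control. Over all genes 13.2% were higher and 14.2% lower. On chromosome 18, 29.2% of 253 genes were higher and 7.51% lower, with a median of 0.12 under knockdown and 0.15 in control. On chromosome 6, 27.5% of 480 genes were higher and 10.2% lower, and on chromosome 10, 28.1% of 524 were higher and 9.16% lower, with medians of 0.09 and 0.09 under knockdown and 0.12 and 0.11 in control. Of 132 windows of 20 Mb with at least 20 genes, 112 had medians of the same sign in both conditions. The window from 80 to 100 Mb of chromosome 10 was the highest, at 0.22 under knockdown and 0.24 in control over 139 genes. The lowest under knockdown was the window from 140 to 160 Mb of chromosome 1, at -0.28, and -0.22 in control, over 40 genes. The lowest in control was that from 0 to 20 Mb of chromosome X, at -0.29, and -0.24 under knockdown, over 36 genes. The chromosomes were chosen after their values were seen, and no test was made.

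Splicing was compared over 22770 events. These were exons, introns and alternative splice sites with a mean PSI of 5 to 95% whose shallowest library held 10 reads or more. To be called, an event had to reach an adjusted p under 0.05 and differ by 10 points of PSI or more. Under knockdown 13 events were called between the lines, or 0.0571%, 5 with a higher PSI in pEx5 and 8 with a lower one. At an unadjusted p under 0.05 there were 2160, or 9.49%. In control 8 were called, or 0.0351%, and 7.51% had an unadjusted p under 0.05. Knockdown libraries of the lines did not overlap for 39.4% of events. The 13 became 6, 3, 1 and 2 when pEx5 library A or B or mEx5 library A or B of the knockdown was left out, and the 8 became 1 without pEx5 library A or B or mEx5 library B of the control. Of the 13, 11 were exons and 2 introns, and all 13 had a difference of the same sign in control. Over all 22770 events, many of which share genes and reads, the line differences of knockdown and control correlated weakly, with r = 0.14 (Pearson) and rho = 0.14 (Spearman). Those in Mapt and Cux1 were called there too. For the departure 0 of 22770 events were called, or 0%, with 1259 at an unadjusted p under 0.05, or 5.53%. The calls of the authors' deposited table marked 1651 events between the knockdown lines, or 0.721% of 228956, all 13 among them. They marked 1185 between the control lines, or 0.519%, and 206 in both, which is 12.5% and 17.4% of each.

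The exons with the most negative PSI differences were those of Stag1 and Mapt. Stag1 encodes a subunit of cohesin, the ring that holds DNA strands together. Its neighbouring exons of 93, 175 and 140 bases had lower PSI in pEx5. For the 93-base exon PSI was 71.2% and 65.5% in pEx5 and 99.1% and 96.2% in mEx5 under knockdown, and 73.7% and 72.0% against 100% and 100% in control. The 175-base exon was at 74.4% and 67.2% against 98.2% and 96.8%, and the 140-base exon at 78.2% and 70.4% against 99.1% and 98.2%. Over the 3 exons the knockdown mEx5 libraries were at 96.2% or more and the knockdown pEx5 libraries at 78.2% or less. The differences were -29.3, -26.7 and -24.4 points, with adjusted p of 0.0147, 0.0088 and 0.0171 (limma). The 3 exons are adjacent and their reads overlap, so that they are not 3 independent events. By length and 1 flanking intron each, they match exons 23, 24 and 25 of a coding transcript, at chr9:100928023-100928115, chr9:100929841-100930015 and chr9:100931587-100931726 on the plus strand of GRCm38, and together are 408 bases, or 136 codons. The sequences are given because the 93-base exon had the most negative PSI difference of the called events and the others lie beside it.
Stag1 exon 23: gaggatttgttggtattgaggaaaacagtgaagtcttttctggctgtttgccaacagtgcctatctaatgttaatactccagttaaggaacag
Stag1 exon 24: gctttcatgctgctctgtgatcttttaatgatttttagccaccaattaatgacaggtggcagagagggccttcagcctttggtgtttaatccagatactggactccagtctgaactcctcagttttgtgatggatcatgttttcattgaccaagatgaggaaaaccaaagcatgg
Stag1 exon 25: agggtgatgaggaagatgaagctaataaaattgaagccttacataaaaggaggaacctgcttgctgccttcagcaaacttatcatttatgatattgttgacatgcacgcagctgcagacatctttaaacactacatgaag

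Mapt encodes the microtubule-binding protein tau. The PSI of its 711-base exon was 10.1% and 8.56% in pEx5 and 34.6% and 37.0% in mEx5 under knockdown, and 5.58% and 6.08% against 24.7% and 21.2% in control. The groups did not overlap in either condition. The difference was -26.4 points under knockdown (adjusted p = 0.000217, limma) and -17.1 points in control (adjusted p = 0.000498, limma). It kept its call under the 16 alternatives run. Each of the other 12 called events lost its call in 2 or more alternatives.

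Exons with a higher PSI in pEx5 under knockdown were those of Ccdc136, Phf8, Cux1 and Glt25d1. Ccdc136, a coiled-coil protein gene, had a 222-base exon at 79.2% and 74.6% in pEx5 and 43.5% and 44.1% in mEx5, from 75 to 179 reads in the 8 libraries. In control it was at 31.9% and 30.4% against 18.9% and 20.4%, so the difference was 33.1 points under knockdown and 11.4 in control. Its departure of 21.6 points missed the threshold (adjusted p = 0.892, limma). Phf8, a histone demethylase gene, had a 303-base exon at 76.4% and 72.0% against 51.7% and 58.1% under knockdown, and at 63.0% and 64.5% against 56.6% and 62.4% in control. Its departure was 15.0 points (unadjusted p = 0.00315, adjusted p = 0.892, limma). The 207-base exon of the collagen glycosyltransferase gene Glt25d1 was at 89.1% and 89.0% against 74.4% and 77.2% under knockdown and at 92.0% and 91.6% against 83.3% and 82.2% in control. For Cux1, a homeodomain transcription factor, the 111-base exon was at 91.6% and 90.2% against 75.7% and 76.9% under knockdown and at 93.1% and 95.5% against 74.0% and 77.2% in control. The lines did not overlap for any of these 4 exons in either condition.

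Besides Stag1 and Mapt, exons of Copg2 and Fam126a had a lower PSI in pEx5. The 53-base exon of Copg2, a coatomer subunit gene, was at 86.3% and 87.0% in pEx5 and 99.6% and 99.2% in mEx5 under knockdown, and at 90.4% and 88.5% against 100% and 100% in control. The 298-base exon of Fam126a was at 13.9% and 19.1% against 34.9% and 40.6% under knockdown and at 31.2% and 24.9% against 53.5% and 51.6% in control. Both kept the lines apart in both conditions. The exon of Copg2 is shown because its length is not a multiple of 3, and that of Cux1 because it was called in both conditions. They lie at chr6:30895542-30895594 and at chr5:136485741-136485851, both on the minus strand of GRCm38.
Copg2 exon: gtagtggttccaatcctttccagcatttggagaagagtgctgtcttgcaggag
Cux1 exon: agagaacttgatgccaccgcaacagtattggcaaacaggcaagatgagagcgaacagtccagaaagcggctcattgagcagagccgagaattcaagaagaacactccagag

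The called introns, in Ablim1 and Bdh2, had nearly all their boundary reads at 1 boundary. In the Ablim1 intron the 5′ boundary held 0 to 4 reads and the 3′ boundary 275 to 636 reads in the 8 libraries. In the Bdh2 intron the 5′ boundary held 0 reads in all 8 and the 3′ boundary 47 to 163. Their PSI is therefore no measure of retention of the whole intron. In Bdh2 no read spanned the intron junction in the 4 pEx5 libraries, while the mEx5 libraries had 11 to 22.

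**Figure D5:**
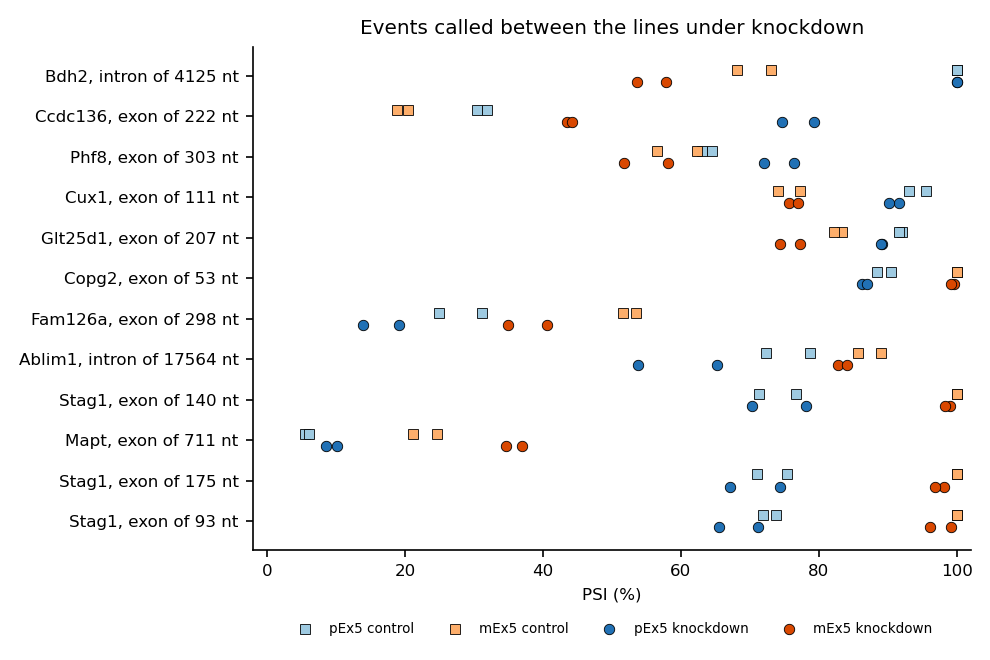
PSI in percent of 12 of the 13 events called between the lines under knockdown, in each library of the 4 groups (squares control, circles knockdown). For each event the blue pEx5 points and the orange mEx5 points fall on the same sides of each other in control and under knockdown.

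The largest departures of splicing from the control line difference were in events with few reads. Of 161 events with an unadjusted p under 0.01 and at least 10 points, or 0.707% of those tested, the 8 most positive were in Cacna1a, Zmynd19, Atxn7l2, Bcorl1, Cit, Zfp777, Pomgnt1 and Mrto4, from 35.8 to 58.9 points. The 8 most negative were in Ltk, Prrt2, Mst1, Tomm20, Polr3gl, Mbd5, Hps5 and Arhgef11, from -33.8 to -58.7 points. All 16 had an adjusted p of 0.892 (limma), and their shallowest library held 10 to 41 reads. Among the better covered was the 104-base intron of Polr3gl, an RNA polymerase III subunit gene, with 45 to 95 reads in the 8 libraries. Its PSI was 41.0% and 37.4% in pEx5 and 57.0% and 75.3% in mEx5 under knockdown, and 27.8% and 21.9% against 15.7% and 12.5% in control. The 128-base exon of the calcium channel gene Cacna1a was at 100% and 100% against 60% and 50.4% under knockdown and at 100% and 71.9% against 100% and 100% in control, from 15 to 28 reads in the 8 libraries.

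Genes without enough junction reads could be read only from the authors' group RPKM values, which have no replicates. Of 4020 such genes with at least 1 RPKM in a knockdown group, 3831 were above 0 in all 4 columns. In 386 of these the knockdown line ratio departed at least 2-fold from the control ratio, 181 upward and 205 downward. The authors' deposited table gave an FDR under 0.05 in either line comparison for 47 of the 386. The named genes with the largest knockdown ratios were the short RNA genes Mir343, mt-Tq, Mir23b, mt-Tl1 and Mir6907, and those with the smallest were Tmem254c, Snord15a, Rnu11, Scarna3b and Xaf1. Mir343 stood at 5.00 and 0.34 RPKM under knockdown and at 1.19 and 5.18 RPKM in control. Xaf1, an interferon-induced gene, stood at 0.25 and 1.14 RPKM under knockdown and at 0.13 and 0.05 RPKM in control. Xaf1 had a log2 fold change of -0.82 under knockdown (FDR = 0.257) and -0.09 in control (FDR = 1) in the authors' deposited table, of which the second is opposite in sign to the RPKM ratio. Of these 10 genes 5 had an FDR in that table, and none of those was under 0.05 in either comparison. The libraries were made from polyadenylated RNA and selected for long inserts, and how well they sample such short genes was not tested.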

How the data were processed

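RNA of mouse N2A cells was sequenced from stranded, poly(A)-selected libraries, per the labels' protocols. The submitters' processing notes name Salmon 0.14.1, edgeR and mm10, with no role or order. The deposited expression table holds 1 RPKM value per group and the authors' log2 fold changes with FDR q-values, and no value per library. The deposited splicing table gives, per event and library, the percent spliced in and a quality score, per the file headers, in whose fields the authors wrote read counts before and after their correction. Its assembly and the criterion of its event calls are not given in the sources used here.

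From the splicing table, exon-exon junction reads were summed per gene and scaled by the median of ratios. They were tested as log2 values (prior count 2, mean of at least 20 reads) with limma 3.58.1 in R 4.3.3. All 12 libraries entered 1 fit with a coefficient per group, so that the 6 groups of 2 share 1 spread. Such reads count spliced RNA only, and paralogues can share them. Events were fitted on the logit of inclusion with weights from the read counts (pseudocount 0.5, variance floor 0.01). P-values were Benjamini-Hochberg adjusted over all genes or events, and the steps were tested on simulated data. Intervals of 95% are exact (Clopper-Pearson) and cover counting error only.

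The genes named were Puf60, those called for the departure with the 6 largest each way at an unadjusted p under 0.01, the 10 highest and 10 lowest of the called genes with no overlap, and the 2 highest and 2 lowest called members of each list, from which the text takes some. Events were named likewise, 8 each way, and genes by RPKM alone 5 each way. The comparison, the 24 gene lists and the tests were chosen with earlier results of these data known. Exon positions were matched to the GENCODE annotation of GRCm38 by gene, length and flanking introns, and promoters were taken from RefSeq. Alternatives changed the scaling, filters, prior count, weights, thresholds, libraries fitted and replicate block, and left out each library. Some items are not reported here.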

Additional observations from a re-analysis of the deposited data

Results flagged for a closer look

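The line difference of 3 genes differed between knockdown and control by a test of the difference itself, an interaction contrast in limma adjusted over 10363 genes. For Cth the departure was -0.78 (adjusted p = 0.000282, limma), with pEx5 above mEx5 in control only. For Htr3a it was -0.63 (adjusted p = 0.0211, limma), with pEx5 above mEx5 in both conditions and by less under knockdown. For Capn6 it was -0.66 (adjusted p = 0.0383, limma), with pEx5 below mEx5 in both and by more under knockdown. The control line difference of Capn6 was not called here, while the authors' deposited table gave it an FDR of 0.02475. The calls of Htr3a and Capn6 depend on single libraries and that of Cth was kept under all 15 alternatives.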

How the results depend on the processing

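The 134 named results kept their direction under the alternatives run. Of the 98 that were called, 61 kept the call under every alternative and 37 lost it under 1 or more, and the other 36 had no call to lose. With a fold threshold of 1.5 the called genes were 741 under knockdown and 774 in control. With scaling to the upper quartile the split was 1121 higher and 1647 lower under knockdown and 1047 and 1629 in control. The called events under knockdown were 6 with a variance floor of 0.05, 5 without weights and 8 in a fit of the 8 libraries without doxycycline. Those in control were 15 with a pseudocount of 1 and 4 with a variance floor of 0.05. Leaving out 1 library at a time gave 1647 to 2831 genes under knockdown, 1699 to 2919 in control and 1 to 2 for the departure. It gave 1 to 14 events under knockdown, 1 to 8 in control and 0 to 0 for the departure, and a Puf60 difference of -0.34 to -0.19. Correlations of the A minus B deviations ran from -0.36 to 0.29 between groups. They had no common sign and cannot settle whether the letters pair the libraries. With the replicate block there were 2827, 2744 and 3 genes and 9, 8 and 0 events, and events including those of Ablim1, Cux1, Fam126a and Phf8 lost their call. Alternatives chosen after seeing the data gave 11 events under knockdown with balanced introns only, and 217 or 676 genes by RPKM at a minimum of 2 or 0.5 RPKM. With 2 libraries a group, small differences cannot be told from the spread, and events near 10 reads have wide counting error.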
